A study of Arabidopsis thaliana with 12 samples.

Results

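A constitutive and an acute supply of the floral regulator LEAFY to Arabidopsis thaliana seedlings were set against each other, probe set by probe set. The constitutive response was 35S::LFY minus Landsberg erecta, and the acute response was LEAFY-GR with dexamethasone minus LEAFY-GR with mock treatment. The quantity described here is the constitutive response minus the acute response, formed within each lot of arrays on the scale log2(signal + 10) for all 22746 probe sets that are not Affymetrix controls. A positive value means that the constitutive response was the higher of the pair. The 4 groups hold 8 of the 12 arrays of the series, and no array enters both responses.

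All RNA came from 9-day-old seedlings, taken whole as far as the labels say. Seedlings carrying LEAFY-GR were sampled at 8 h after dexamethasone or after mock treatment, and seedlings of 35S::LFY and of Landsberg erecta are called untreated. Each group had 2 arrays, 1 in each of the lots that the labels number 1 and 2. The labels name neither the promoter that drives LEAFY-GR, nor the accession behind either transgene, nor the contents of the mock treatment, and no seedlings without LEAFY-GR received dexamethasone on the arrays analysed here. Nor is it stated that replicate arrays stem from independent cultures, and p-values therefore reflect only the spread between these samples, part of which could be technical. In whole seedlings, fewer cells of a type and less RNA per cell cannot be told apart.

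LEAFY is a plant-specific transcription factor that gives young meristems on the flanks of the shoot the identity of flowers rather than of shoots. It acts together with partners such as the F-box protein UFO and switches on genes for floral meristem and floral organ identity. The 35S promoter of cauliflower mosaic virus is active in most tissues throughout development, so plants with 35S::LFY have carried high LEAFY from early growth onward, and such plants are known for early flowers in place of shoots. LEAFY-GR is LEAFY fused to a steroid-binding stretch of the glucocorticoid receptor that keeps the fusion inactive until dexamethasone binds it. The constitutive design reads seedlings long exposed to LEAFY, and the acute design reads the hours after activation.

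The deposited values were linear signals already brought to a common level, with medians of 56.7 to 69.4 on the 8 arrays. Between 15% and 17.6% of the signals of an array lay below 10, the constant added before the logarithm. Arrays of the same group correlated at 0.967 to 0.979. The shoot genes RCA and LHCB4.1, which encode Rubisco activase and a light-harvesting protein, summed to signals between 11083.9 and 15797.2 per array, the only 2 of 10 shoot markers measured under a name. The root-hair expansin genes EXPA7 and EXPA18, 2 of 11 root markers, summed to between 94.7 and 125.2 on the LEAFY-GR arrays and between 140.5 and 224.4 on the others, with no overlap. None of these 4 genes passed for the difference. Of 11 flower markers 2 were measured, and SPL read 1.7 to 5.9 and UFO 1.7 to 28.4. The log2 ratio of 3′ to 5′ signal of the control probe sets for GAPDH, actin and ubiquitin, read by 6 pairs of probe sets, also differed between the designs. Its constitutive change minus its acute change was negative for 6 of 6 pairs in lot 1 (-0.15 to -0.08) and for 5 of 6 in lot 2 (-0.46 to 0.43). The part of RNA quality in the results below was not tested.

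The responses differed at few probe sets. limma's moderated test, adjusted by the Benjamini-Hochberg method, passed 23 of 22746 probe sets (0.101%) at an adjusted p under 0.05, the threshold meant by "passed" throughout. Of these, 15 were higher (0.0659%) and 8 lower (0.0352%) in the constitutive response, and 1501 had an unadjusted p under 0.05. In comparison 108 probe sets (0.475%) passed for the acute response and 67 (0.295%) for the constitutive response. The constitutive count rested on every one of its arrays: leaving out any 1 of the 4 left 1 or 2 higher and 0 or 1 lower, against 33 higher and 21 or 22 lower without a LEAFY-GR array of the acute design. The median difference over all probe sets was -0.11 log2, and 95.0% of probe sets lay within 1 log2 unit of 0. With arrays scaled to equal medians, which put the median difference at 0.08, 15 probe sets were higher and 3 lower. The differences that passed ran from 1.26 to 4.35 log2 units in size and kept their sign in both lots for 23 of 23, where the smallest value in either lot was 1.24 in size. The calls were made on the mean of these same lots, so the shared sign is no separate support.

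**Figure D1:**
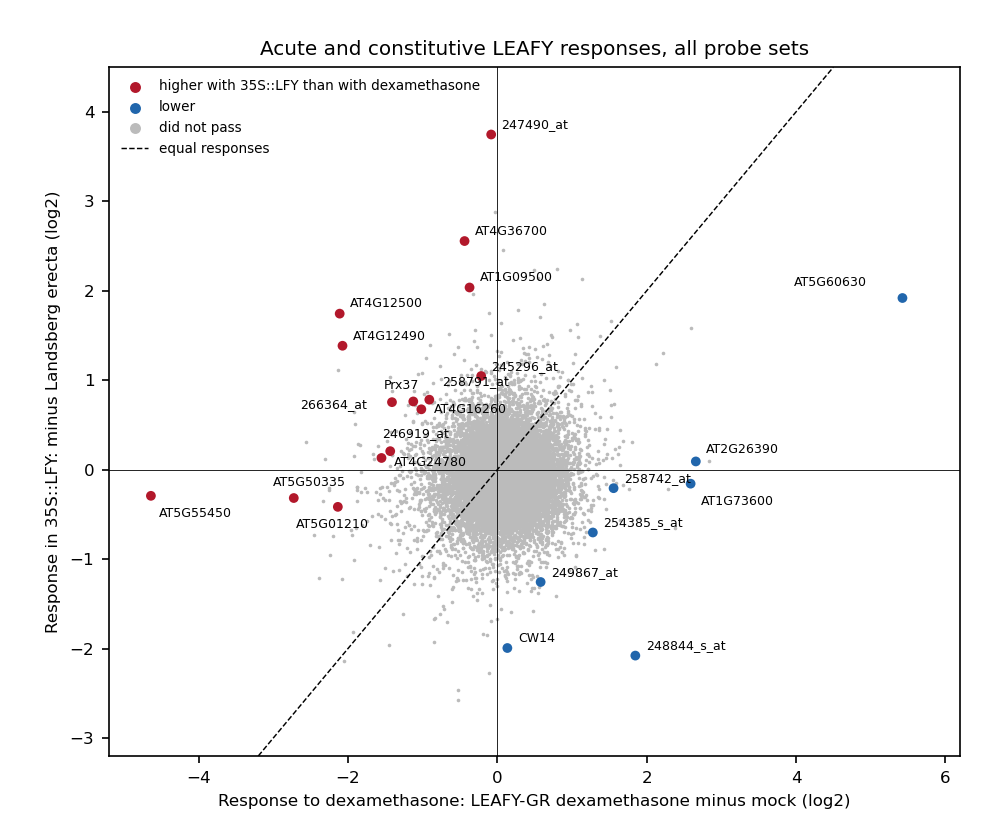
Each point is a probe set, with the log2 response to dexamethasone on the x axis and the log2 response in 35S::LFY on the y axis. The 15 red points passed as higher and the 8 blue points as lower in 35S::LFY, the dashed line marks equal responses, and AT5G60630 stands far to the right with 5.43 against 1.92.

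Across all 22746 probe sets the responses were almost unrelated, with a Pearson correlation of 0.06 and a Spearman correlation of 0.01 as a description, and within lots Pearson values of 0.05 and 0.02. The acute response itself correlated at 0.32 between lots and the constitutive response at 0.26. No array is shared, so the constitutive response could be read at the probe sets that passed in the acute one. Of the 49 probe sets that rose with dexamethasone (0.215%), 41 (83.7%) had a positive change in 35S::LFY, where 43.5% of all probe sets did. Their median change in 35S::LFY was 0.32 log2, against a median of 1.35 with dexamethasone and of -0.04 in 35S::LFY over all probe sets. Of the 59 that fell with dexamethasone (0.259%), 40 (67.8%) had a negative change in 35S::LFY, where 56.4% of all did, with a median of -0.22 against -1.65 with dexamethasone.

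Read the other way, 39 probe sets rose in 35S::LFY (0.171%), a count that fell to 1 or 2 without any 1 array of that design, and 29 of them (74.4%) had a positive change with dexamethasone, against 61.4% of all. Their median change with dexamethasone was 0.28, against 1.29 in 35S::LFY. Of the 28 that fell in 35S::LFY (0.123%), 20 (71.4%) had a negative change with dexamethasone, against 38.6% of all, with a median of -0.16 against -1.54. Probe sets picked for passing in a response tend to have that response overstated, so the smaller medians in the other response are no measure of a weaker effect.

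**Figure D2:**
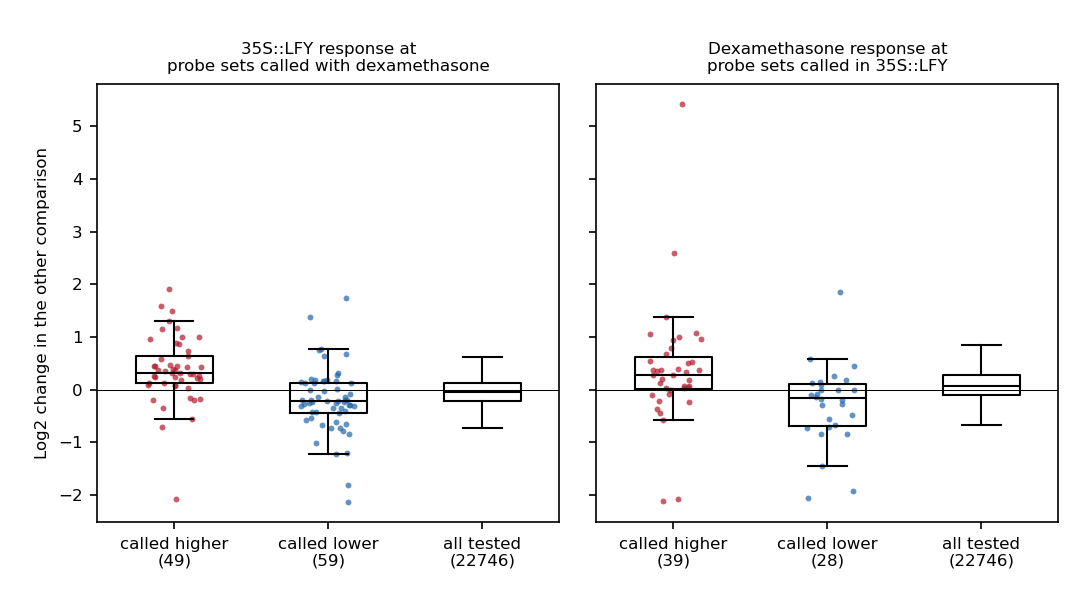
The left panel shows log2 changes in 35S::LFY at the 49 and 59 probe sets that rose and fell with dexamethasone, and the right panel shows changes with dexamethasone at the 39 and 28 that rose and fell in 35S::LFY. Points are probe sets, boxes span the quartiles with the median as a line and whiskers reach 1.5 times that span, and the third box of each panel holds all 22746, with medians of -0.04 and 0.07.

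The 23 probe sets fell into 5 kinds by which of the responses passed. The kinds that rest on a constitutive call share the loss of most of those calls when 1 array of that design is left out. In 3 both responses passed and went opposite ways, while by sign alone the responses were opposite at 18 of the 23. In 1 both passed in the same direction and differed in size. In 12 the acute response alone passed, 8 falling and 4 rising, in 6 the constitutive response alone passed, 4 rising and 2 falling, and in 1 neither passed by itself. The annotation gave a locus to 14 of the 23, and a symbol to 2 of those, CW14 and the peroxidase gene Prx37. The other 9 are given by probe set and lie outside the rule by which genes were named: their choice followed a look at their values.

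The 3 probe sets whose responses passed in opposite directions included a pair of close neighbours on chromosome 4, AT4G12490 and AT4G12500. The reference annotation separates this pair by a single protein-coding gene, AT4G12495. Both fell with dexamethasone and rose in 35S::LFY. For AT4G12500 (probe set 254819_at) the signals in lots 1 and 2 were 405.0 and 319.6 in 35S::LFY and 98.4 and 102.3 in Landsberg erecta, 49.7 and 61.6 with dexamethasone and 253.0 and 292.8 in mock. Each pair of groups was apart without overlap, and the dexamethasone arrays were the lowest of all 8. The response was 1.75 ± 0.19 log2 (SE) in 35S::LFY and -2.11 ± 0.19 with dexamethasone. The difference of 3.85 ± 0.27 had the smallest adjusted p of all probe sets, 0.000361.

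AT4G12490 (254832_at) read 343.4 and 303.7 in 35S::LFY, 109.5 and 125.8 in Landsberg erecta, 197.2 and 165.9 with dexamethasone and 935.1 and 672.0 in mock. Here the mock arrays were the highest and the Landsberg erecta arrays the lowest. Its responses were 1.39 ± 0.21 and -2.07 ± 0.21, and the difference was 3.46 ± 0.30 (limma, adjusted p = 0.00115). The third of this kind, 248844_s_at, belongs to the type of probe set whose suffix marks probes shared by several transcripts. It read 163.3 and 259.9 in 35S::LFY, 897.2 and 908.5 in Landsberg erecta, 345.1 and 390.7 with dexamethasone and 72.7 and 122.6 in mock. Thus it fell by 2.08 in 35S::LFY and rose by 1.85 with dexamethasone, a difference of -3.93 ± 0.48 (adjusted p = 0.0106).

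AT5G60630 (247610_at, chromosome 5) was the single probe set of the 23 to pass as higher in both designs. Its signals were 2994.6 and 2463.8 with dexamethasone and 58.1 and 49.1 in mock, against 156.9 and 127.2 in 35S::LFY and 26.6 and 33.7 in Landsberg erecta. At 8 h of activation it was thus far above its level in 35S::LFY, while the control groups lay close together. The rise was 5.43 ± 0.23 log2 with dexamethasone and 1.92 ± 0.23 in 35S::LFY, and the difference was -3.51 ± 0.33 (adjusted p = 0.00155).

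Among the 8 that fell with dexamethasone alone, AT5G55450 (248062_at, chromosome 5) had the largest difference of all 23 with the constant of 10. With a constant of 32 its difference was 3.15, below that of 247490_at (3.74), AT4G12500 (3.37) and AT4G12490 (3.2) and smaller in size than that of 248844_s_at (-3.62) and AT5G60630 (-3.52). It read 2.1 and 8.2 with dexamethasone against 291.3 and 442.8 in mock, and 101.1 and 145.4 in 35S::LFY against 195.6 and 115.8 in Landsberg erecta. The dexamethasone signals lay below 10, and the 35S::LFY and Landsberg erecta arrays overlapped. Its acute response was -4.64 ± 0.34 and its constitutive response -0.29 ± 0.34, a difference of 4.35 ± 0.48 (adjusted p = 0.00599). AT5G50335 (248509_at) fell to 2.2 and 0.7 with dexamethasone from 71.7 and 59.8 in mock, and read 18 and 8.4 in 35S::LFY against 14.8 and 22.2 in Landsberg erecta. Signals here were at or below 10 in several arrays, and the difference was 2.41 ± 0.37 (adjusted p = 0.0439).

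AT5G01210 (251144_at) read 192.3 and 239.4 with dexamethasone and 957.9 and 995.1 in mock, next to 129.4 and 114.7 in 35S::LFY and 178.5 and 153.9 in Landsberg erecta. The mock arrays stood apart from the other 6, all of which lay below 240. It fell by 2.13 with dexamethasone, and the difference was 1.72 ± 0.22 (adjusted p = 0.0129). AT4G24780 (254119_at) ran the other way at the start, with 106.5 and 96.9 with dexamethasone, 312.7 and 320.9 in mock, 818.6 and 751.7 in 35S::LFY and 797.7 and 641.1 in Landsberg erecta. Both LEAFY-GR groups were below both other groups, the dexamethasone group the most. Its acute response was -1.55 ± 0.17 and the difference 1.68 ± 0.25 (adjusted p = 0.0295). The probe set 246919_at gave 632.1 and 517.7 with dexamethasone against 1445.3 and 1687.5 in mock, 1563.1 and 1472.9 in 35S::LFY and 1395.7 and 1234.2 in Landsberg erecta. Only the dexamethasone arrays stood apart. The acute response was -1.43 ± 0.15 and the constitutive response 0.21 ± 0.15, a difference of 1.64 ± 0.21 (adjusted p = 0.0146).

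The other 3 of this kind had the largest constitutive changes of the 8, 0.68 to 0.76 log2, and these too did not pass. Prx37 (255110_at, locus AT4G08770), which encodes a class III peroxidase, an enzyme type of the cell wall, read 291.4 and 285.4 in 35S::LFY, 158.1 and 173.8 in Landsberg erecta, 159.0 and 224.7 with dexamethasone and 440.1 and 408.8 in mock. Its acute response was -1.12 ± 0.20, its constitutive response 0.76 ± 0.20 (adjusted p = 0.262), and the difference 1.89 ± 0.28 (adjusted p = 0.0313). AT4G16260 (245393_at) had 676.4 and 614.1 in 35S::LFY, 413.2 and 386.7 in Landsberg erecta, 494.3 and 570.6 with dexamethasone and 1117.1 and 1053.3 in mock, with no overlap within either design. Its difference of 1.69 ± 0.17 had an adjusted p of 0.00358, and its constitutive response of 0.68 ± 0.12 an adjusted p of 0.0539. The probe set 266364_at read 24.6 and 31.5 in 35S::LFY and 12 and 12.9 in Landsberg erecta, but 337.6 and 354.6 with dexamethasone and 983.5 and 890.4 in mock. The LEAFY-GR arrays were all above 330 and the others all below 32, and the difference was 2.17 ± 0.25 (adjusted p = 0.00684). For 258791_at neither response passed alone, with -0.91 ± 0.17 (adjusted p = 0.0507) and 0.78 ± 0.17 (adjusted p = 0.138), while the difference of 1.69 ± 0.25 did (adjusted p = 0.0275).

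The 4 that rose with dexamethasone alone began with AT1G73600 (259842_at, chromosome 1). It read 731.6 and 1032.1 with dexamethasone, 146.6 and 126.3 in mock, 625.8 and 751.8 in 35S::LFY and 762.8 and 767.8 in Landsberg erecta. The mock arrays were the low ones, and the dexamethasone arrays overlapped the range of Landsberg erecta and 35S::LFY. The acute response was 2.59 ± 0.22, the constitutive response -0.16 ± 0.22, and the difference -2.74 ± 0.32 (adjusted p = 0.00684). AT2G26390 (245034_at) read 211.8 and 141.7 with dexamethasone, 19.3 and 18.8 in mock, 46.4 and 31.8 in 35S::LFY and 28.1 and 44.4 in Landsberg erecta. Its dexamethasone arrays were above the other 6, which all lay below 47, and the difference was -2.57 ± 0.36 (adjusted p = 0.0192). The same pattern was seen at 258742_at, with 359.2 and 314.3 with dexamethasone and 93 to 128.7 on the other 6 arrays, a difference of -1.76 ± 0.26 (adjusted p = 0.0334). The shared-probe set 254385_s_at had 685.3 and 479.7 with dexamethasone and 80.3 to 259.0 elsewhere, a difference of -1.98 ± 0.27 (adjusted p = 0.0177).

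CW14 (262080_at, locus AT1G59650) led the falls found in 35S::LFY alone. It read 26.0 and 18.5 in 35S::LFY against 115.7 and 119.3 in Landsberg erecta, 99.9 and 103.4 with dexamethasone and 101.8 and 82.4 in mock. The 35S::LFY arrays were the low pair and the other 6 lay between 82 and 120. The constitutive response was -1.99 ± 0.20, the acute response 0.14 ± 0.20 and the difference -2.13 ± 0.28 (adjusted p = 0.0146). The probe set 249867_at fell to 269.1 and 263.5 in 35S::LFY from 670.1 and 629.3 in Landsberg erecta, and read 677.3 and 720.6 with dexamethasone and 446.2 and 482.1 in mock, a difference of -1.84 ± 0.25 (adjusted p = 0.0167).

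Of the 4 that rose in 35S::LFY alone, AT4G36700 (246273_at, chromosome 4) was the clearest by level. It read 60.4 and 82.1 in 35S::LFY and 3.1 to 10.7 on the other 6 arrays. Of those 6, the mock array of lot 2 alone exceeded the constant of 10, and the size of the rise depends on that constant. Its constitutive response was 2.56 ± 0.28 and the difference 2.99 ± 0.39 (adjusted p = 0.0146). At 245296_at the signals were 630.9 and 577.2 in 35S::LFY and 249.1 to 340.1 on the other 6, and the difference of 1.26 ± 0.20 was the smallest of the 23 (adjusted p = 0.0493).

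The other rises were high in LEAFY-GR seedlings too, with and without dexamethasone. AT1G09500 (264514_at) read 200.4 and 211.4 in 35S::LFY and 39.1 and 46.3 in Landsberg erecta, and 314.4 and 330.7 with dexamethasone and 437.9 and 402.7 in mock. The constitutive response was 2.04 ± 0.22 and the difference 2.41 ± 0.31 (adjusted p = 0.0136), while mock stood 3.03 ± 0.22 log2 above Landsberg erecta. The probe set 247490_at read 389.3 and 267.9 in Landsberg erecta and between 4060.2 and 5500 on the other 6 arrays. Its difference of 3.83 ± 0.34 (adjusted p = 0.00115) therefore comes from the Landsberg erecta arrays alone, and by its values the 35S::LFY and both LEAFY-GR groups overlapped.

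**Figure D3:**
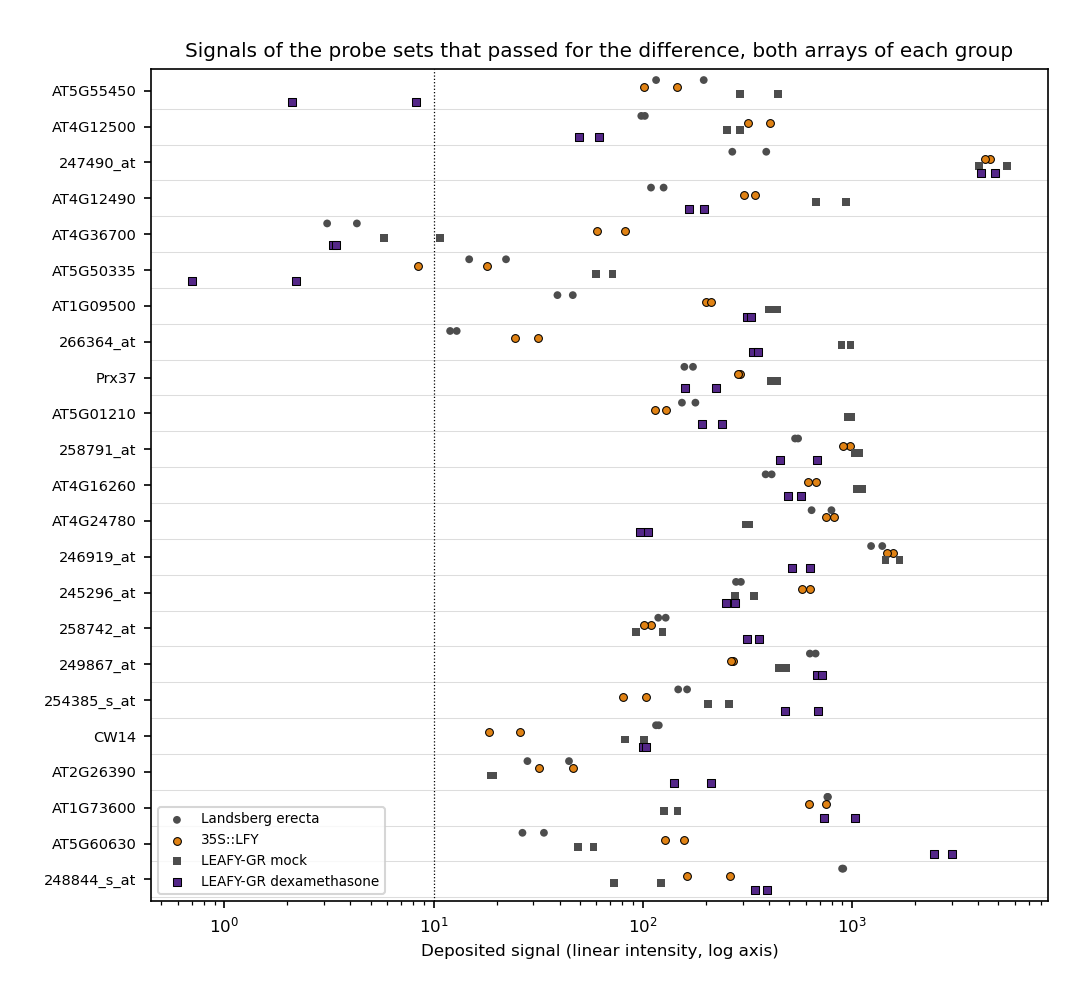
Deposited signals on a log axis for the 23 probe sets that passed, with both arrays of each of the 4 groups as points and a dotted line at the added constant of 10. At AT5G01210 and AT1G73600 the mock arrays stand apart from the other 6, at AT5G60630 and AT2G26390 the dexamethasone arrays, and at CW14 and AT4G36700 the 35S::LFY arrays.

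The control groups of the 2 designs are not alike, and this bears on every difference above. By arithmetic the difference also equals 35S::LFY minus dexamethasone plus mock minus Landsberg erecta, so the starting levels are part of it. Between mock-treated LEAFY-GR and Landsberg erecta, limma passed 1779 probe sets (7.82%), 910 of them higher (4%) and 869 lower (3.82%) in mock. Across the 23, this starting difference ran from -3.12 log2 at 248844_s_at to 5.40 at 266364_at. It was near 0 for 245296_at (0.09), 258742_at (-0.18), 246919_at (0.25) and CW14 (-0.33). It was 1.35 for AT4G12500, 2.66 for AT4G12490, 2.49 for AT5G01210 and -2.41 for AT1G73600. These comparisons share arrays, so their values are set side by side and no agreement is read from them. Transgene, accession, treatment and handling cannot be told apart in the starting levels.

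The 2 cycloheximide groups of the series give a readout that the difference does not use, namely LEAFY-GR with dexamethasone and cycloheximide minus LEAFY-GR with cycloheximide. Cycloheximide blocks protein synthesis, and the values are given without a test. In this readout AT5G60630 was 4.51 ± 0.23 log2 higher with dexamethasone, with signals of 754.0 and 672.7 against 14.7 and 30.8. The change was 1.90 ± 0.22 for AT1G73600, 1.76 ± 0.25 for AT2G26390 and 1.47 ± 0.19 for 258742_at, all of which had also risen without cycloheximide. The other probe sets that had risen without it, 254385_s_at and 248844_s_at, gave 0.24 ± 0.19 and 0.35 ± 0.34. Among those that had fallen, it was -2.11 ± 0.34 for AT5G55450, -1.15 ± 0.18 for 266364_at and -1.03 ± 0.15 for AT5G01210. For AT4G12490 it was -0.74 ± 0.21, and for AT4G12500 it was 0.00 ± 0.19, where signals were 46.1 and 40.6 against 39.4 and 47.6. For AT4G16260, 246919_at, AT4G24780 and Prx37 it was -0.57 ± 0.12, -0.39 ± 0.15, -0.27 ± 0.17 and -0.20 ± 0.20. AT5G50335 read 0.8 or less in both cycloheximide groups, so no fall could have been seen there. Cycloheximide alone had also moved other probe sets from their mock levels. Mean signals with it, against mock, were 43.5 against 272.9 for AT4G12500 and 147.1 against 803.55 for AT4G12490. They were 83.15 against 1566.4 for 246919_at, 81.4 against 316.8 for AT4G24780 and 338.65 against 1085.2 for AT4G16260. Prx37 and 254385_s_at went the other way, to 1675.45 from 424.45 and to 4290.4 from 231.85. A small change at these probe sets cannot show whether the dexamethasone response needs new protein. Probe sets with a larger change had moved with cycloheximide alone as well. Their means with it, against mock, were 693.95 against 19.05 for AT2G26390 and 287.1 against 108.6 for 258742_at. Lower means were read at AT5G01210 (134.45 against 976.5), AT5G55450 (106.5 against 367.05) and AT1G73600 (34.2 against 136.45). The same held for AT5G60630 (22.75 against 53.6) and 266364_at (659.05 against 936.95).

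Some genes passed in both responses without a difference that passed. Dexamethasone and 35S::LFY changed AT5G62280 by -2.05 and -2.14, AT5G57760 by -1.93 and -1.81, AT5G22390 by 1.38 and 1.49 and AT1G22570 by 0.99 and 0.96. The near-equal values of AT5G62280 depend on the added constant, as both its 35S::LFY arrays read 2.3. With a constant of 1 its difference was -1.30, and with 32 it was 0.34. Their differences were -0.09 ± 0.43, 0.12 ± 0.34, 0.11 ± 0.34 and -0.03 ± 0.23 (adjusted p from 0.979 to 0.995), and errors of this size do not exclude a moderate difference. AT5G57760, for example, read 33.1 and 33.6 in 35S::LFY against 144.4 and 139.5 in Landsberg erecta, and 69.1 and 51.6 with dexamethasone against 254.7 and 255.9 in mock. AT1G22570 read 363.3 and 315.0 against 167.3 and 171.1, and 783.7 and 837.4 against 351.4 and 461.1. For AT1G24140 the acute rise was 2.59 and the constitutive rise 1.58, from signals of 2.9 to 6.9 in the controls, and the difference of -1.01 ± 0.26 did not pass (adjusted p = 0.342). Just outside the threshold lay AT4G25170, with 115.4 and 116.1 in 35S::LFY against 247.5 and 261.8, and 342.4 and 410.3 with dexamethasone against 279.4 and 346.5 (difference -1.33 ± 0.21, adjusted p = 0.0503). It passed with the lot as a block (0.0168), with a constant of 1 (0.0459) and with a filter that kept mean signals of at least 20 (0.0398). It did not pass with quantile normalization (0.0536), a constant of 32 (0.0524), the 8 arrays alone (0.0651), equal medians (0.15) or no intensity trend (0.23).

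Most of these calls did not hold in every fit that left out 1 array. Each of the 8 arrays was left out in turn, which leaves a lone array in its group and takes the spread of that group from the others. Any such fit has fewer arrays, so a lost call does not by itself point to the array left out. All 23 differences kept their sign in fits that reuse the arrays behind the calls, while their sizes moved to differing extents. Of the 23, 5 passed in all 8 fits: AT4G12500, AT4G12490, AT4G16260, AT5G60630 and 247490_at, with highest adjusted p of 0.00849, 0.0142, 0.0492, 0.0212 and 0.018. AT5G55450 was lost without 35S::LFY replicate 2 (0.0538), 266364_at without 35S::LFY replicate 2 (0.0538) or Landsberg erecta replicate 2 (0.0509), and AT1G73600 without 35S::LFY replicate 1 (0.06) or Landsberg erecta replicate 2 (0.0681). 248844_s_at was lost without 35S::LFY replicate 1 (0.0713) and without either Landsberg erecta array (0.0646 and 0.0875). The other 14 passed in at most 2 fits. AT5G01210 passed without dexamethasone replicate 2 or Landsberg erecta replicate 1, AT2G26390 without the same arrays, 246919_at without dexamethasone replicate 1 or mock replicate 1, 254385_s_at without dexamethasone replicate 2 or mock replicate 1, and CW14 without mock replicate 1 or 35S::LFY replicate 1. AT4G36700 and 258742_at passed without mock replicate 1, and Prx37 and 258791_at without dexamethasone replicate 2. In the remaining fits their highest adjusted p values were 0.115 for AT5G01210, 0.138 for AT2G26390, 0.13 for 246919_at, 0.162 for 254385_s_at, 0.121 for CW14, 0.112 for AT4G36700, 0.215 for 258742_at and 0.219 for both Prx37 and 258791_at. AT1G09500, AT5G50335, AT4G24780, 245296_at and 249867_at passed in 0 of 8, with highest values of 0.0946, 0.222, 0.222, 0.322 and 0.127. The log2 differences themselves ran, for instance, from 2.31 to 2.51 for AT1G09500 and from 1.53 to 1.84 for AT4G24780. Wider ranges were 1.40 to 1.99 for 258791_at, 2.11 to 2.71 for AT5G50335, 3.99 to 4.70 for AT5G55450 and -4.27 to -3.59 for 248844_s_at. Scaling arrays to equal medians ended 9 calls (adjusted p from 0.0541 to 0.145), those of Prx37, AT4G24780, AT2G26390, CW14, 246919_at, 245296_at, 258742_at, 249867_at and 254385_s_at. Quantile normalization ended 6 (0.0505 to 0.0705), those of AT1G09500, AT4G24780, CW14, 258791_at, 245296_at and 249867_at.

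**Figure D4:**
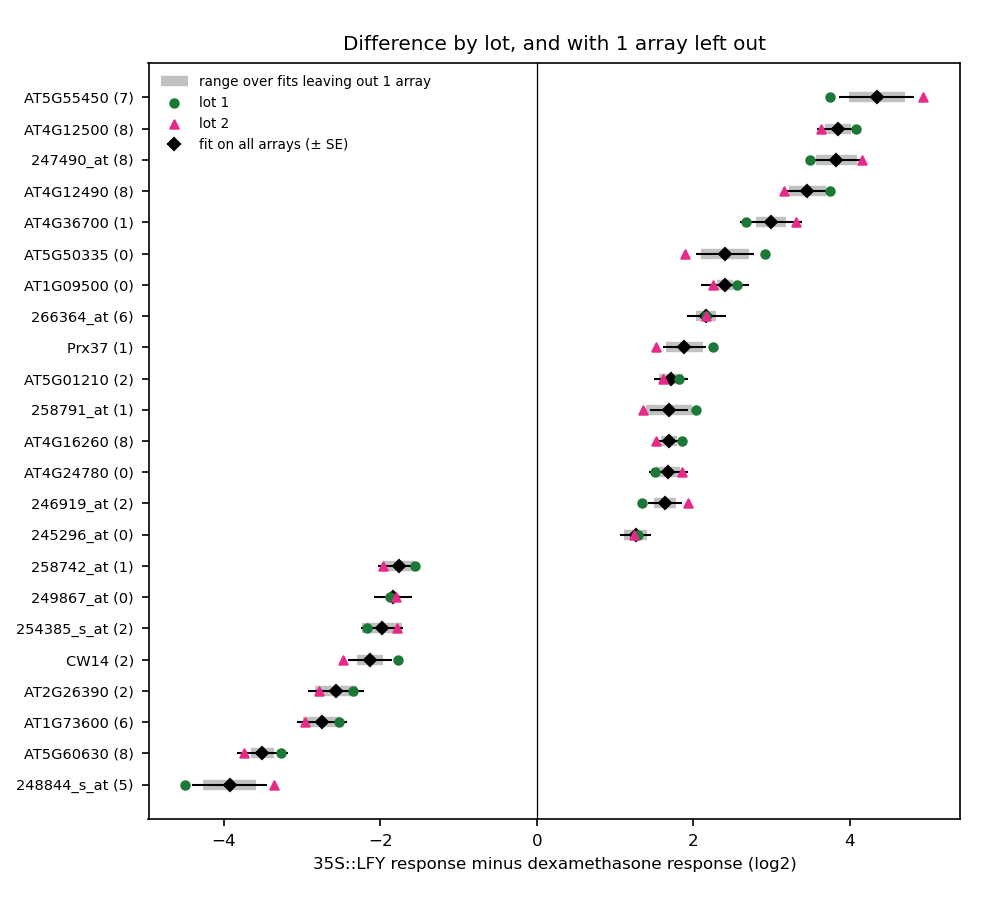
The log2 difference of each of the 23 probe sets is shown from all arrays (diamond, with its SE), within lot 1 (circle) and within lot 2 (triangle), with the range over the 8 fits that leave out 1 array as a grey bar. The number after each name counts those fits in which it passed, from 0 to 8, and no value crosses 0.

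Gene lists for the pathways in which LEAFY and seedling stress are studied were compiled for this work with earlier results of these data known. The 20 lists held 313 entries, of which 87 loci were measured under a name, and 5 of the 87 passed for the difference against 0.101% of all probe sets. An unadjusted p under 0.05 was found for 24 of the 87 loci, and for 1501 of all 22746 probe sets. As members were chosen with those earlier results known, neither count is independent evidence about the lists. Of the list of lipid transfer proteins, small secreted proteins that bind lipids, 5 of 16 were measured and 3 passed as higher, AT5G55450, AT4G12500 and AT4G12490. The list's median difference was 3.46, against -0.11 over all probe sets. Its members were chosen with earlier results of these data known, so this contrast is not independent evidence. The remaining members, AT4G22470 and AT3G18280, had differences of 0.40 ± 0.54 and 0.44 ± 0.30 and acute responses of -0.56 and -0.71.

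The list of reported LEAFY targets had 2 of 18 measured. It was drawn in part from work on LEAFY activation of this kind, so its direction is not independent evidence. AT5G60630 passed, and AT5G49770 lay at the threshold, with a difference of -2.74 ± 0.44 (adjusted p = 0.0507). That difference passed with the lot as a block (0.0461), on the 8 arrays alone (0.016), with a constant of 1 (0.0479), without the intensity trend of the fit (0.0449) and with the signal filter (0.0212). It did not pass with equal medians (0.09), quantile normalization (0.0739) or a constant of 32 (0.104). AT5G49770 read 80.1 and 82.3 with dexamethasone and 1.3 to 3.2 on the other 6 arrays, so it was above the other groups with dexamethasone, while the size of the difference rests on signals below 10. Neither UFO, the partner of LEAFY, nor the other 5 measured genes of the list of floral organ and meristem regulators passed, and the list's median difference was -0.46. JAG, a zinc-finger gene of organ growth, had -1.28 ± 0.50 (adjusted p = 0.695), LAS, a regulator of side-shoot formation, -0.73 ± 0.44, and SPT, a carpel regulator, -0.62 ± 0.43. UFO, SPL and the stem-cell peptide gene CLV3 had -0.30, -0.26 and -0.06, at signals mostly below 10. JAG too was dim, at 5.2 to 28.7, and its difference was -2.17 with a constant of 1 and -0.66 with 32. The 6 measured flowering time genes had a median of -0.91 and 0 passed. FD, a partner of the mobile flowering signal FT, had -1.41 ± 0.69, SNZ, a repressor of flowering, -1.08 ± 0.44, the MADS-box genes AGL42 and AGL24 had -0.95 ± 0.43 and -0.86 ± 0.46, and GI and SMZ 0.22 and 0.10.

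None of the 13 measured genes of auxin response and transport passed (median -0.38). GH3.17, an enzyme that joins auxin to amino acids, had the smallest p of the list. It read 282.4 and 295.5 with dexamethasone against 78.7 and 96.4 in mock, and 171.0 and 182.5 in 35S::LFY against 165.0 and 145.6 in Landsberg erecta, a difference of -1.44 ± 0.41 (adjusted p = 0.413). LBD29, a regulator of lateral roots, had -1.41 ± 0.50 and the related LBD16 -0.80 ± 0.44. The signals of LBD29 were 2.6 to 26.8, and its difference was -2.83 with a constant of 1 and -0.67 with 32. GH3.3 and WES1, also auxin-conjugating enzymes, had 0.71 ± 0.57 and 0.51 ± 0.24. In the list of cell wall and expansion genes 1 of 8 passed, Prx37. XTH19 and XTH18, a neighbouring pair of enzymes that remodel xyloglucan, had differences of opposite sign, 1.25 ± 0.34 and -0.87 ± 0.28 (adjusted p = 0.39 and 0.517). XTH19 read 2.1 and 9.7 with dexamethasone against 46.4 and 48.6 in mock, and 47.8 and 62.1 in 35S::LFY against 103.8 and 80.2 in Landsberg erecta. TBL38 had -1.14 ± 0.29 (adjusted p = 0.34) and the expansin gene EXPA4 1.08 ± 0.31 (adjusted p = 0.41).

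The jasmonate response list had a median of 0.85 over 6 measured genes, and 0 passed. The defensin gene PDF1.2b had 2.38 ± 0.43 (adjusted p = 0.0812), which passed with equal medians (0.045), a constant of 1 (0.0479), the 8 arrays alone (0.0428) and the signal filter (0.0437). PDF1.2b did not pass with quantile normalization (0.12), a constant of 32 (0.184), the lot as a block (0.1) or no intensity trend (0.256). Its signals were 156.0 and 238.8 in 35S::LFY, 33.3 and 21.9 in Landsberg erecta, 422.4 and 370.7 with dexamethasone and 407.9 and 346.3 in mock. It was thus higher in both LEAFY-GR groups than in 35S::LFY, and its probe set is of a type that can share signal with related genes. MYC3, a transcription factor of jasmonate signalling, had 0.85 ± 0.22 (adjusted p = 0.355), from 261.8 and 278.8 in 35S::LFY and 108.1 to 147.6 on the other 6 arrays. JRG21 had 1.83 ± 0.50 (adjusted p = 0.39). In the list of iron deficiency genes (4 measured, median 0.67) AT1G47400 had 1.74 ± 0.50 (adjusted p = 0.418), with 469.8 and 498.6 in 35S::LFY, 99.4 and 90.2 in Landsberg erecta, 50.7 and 48.5 with dexamethasone and 27.1 and 38.0 in mock. BHLH101, a regulator of iron uptake, had 1.00 ± 0.65, from 2.14 in 35S::LFY and 1.13 with dexamethasone. AT3G07720 and PYE had 0.33 and -0.18.

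Of the sugar transporter genes SWEET11, which exports sucrose from leaf phloem cells, had 1.45 ± 0.27 (adjusted p = 0.104), with 532.9 and 619.1 with dexamethasone against 1187.8 and 1633.9 in mock and 1158.1 and 1050.8 in 35S::LFY against 973.6 and 963.8 in Landsberg erecta. SAG29, SWEET4 and SWEET1 had 0.64, -0.40 and -0.23. Among 7 early stress genes (median -0.34) AR781 had -1.37 ± 0.30 (adjusted p = 0.216), having risen with dexamethasone to 530.8 and 393.6 from 171.3 and 115.5, while 35S::LFY read 79.5 and 95.8 against 60 and 84.4. STZ, a zinc-finger repressor, rose by 0.96 with dexamethasone and had a change of 0.89 in 35S::LFY that did not pass (adjusted p = 0.0777). Its levels were far apart, 976.7 and 766.1 with dexamethasone against 83.7 and 75.2 in 35S::LFY. PUB24, PUB22 and PUB23, ubiquitin ligases, had -0.44, 0.50 and -0.40. The glucosinolate genes BCAT4, AOP3 and AOP1 had -1.01 ± 0.24 (adjusted p = 0.262), -0.89 ± 0.28 and -0.39 ± 0.27.

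**Figure D5:**
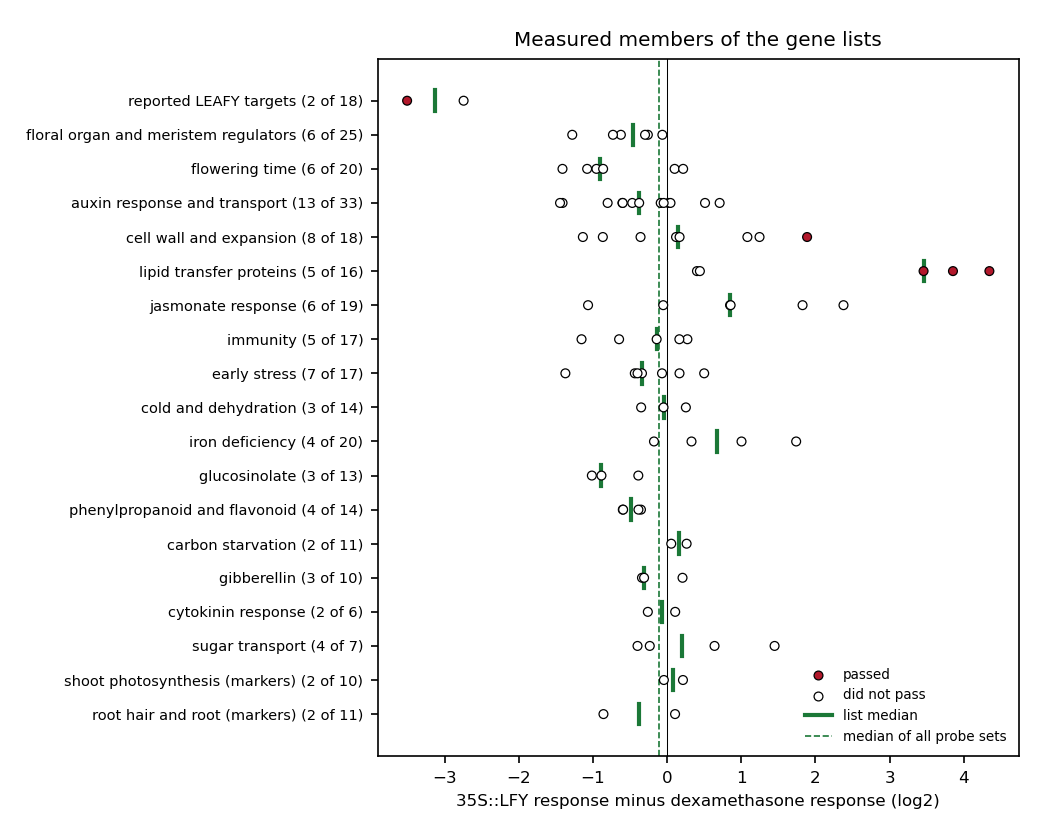
Each point is the log2 difference of a measured list member, filled where it passed, with the list median as a green bar and the median of all probe sets (-0.11) as a dashed line; the numbers after each name give measured loci of entries. Filled points are seen for lipid transfer proteins (3 of 5), reported LEAFY targets (1 of 2) and cell wall and expansion (1 of 8).

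In the other lists 0 measured members passed. The immunity list (5 measured, median -0.14) held GRX480 at -1.15 ± 0.71, EFR at -0.65 and WRKY22 at 0.27. EFR read 1.7 to 13.6, and its difference was -1.44 with a constant of 1 and -0.29 with 32. The phenylpropanoid and flavonoid list (4 measured, median -0.49) held DFR at -0.60, CCOAMT at -0.39 and CCR2 at -0.59 and UF3GT at -0.35. The gibberellin receptor genes GID1A, GID1C and GID1B had -0.31, -0.34 and 0.21. COR15B, COR15A and COR47, which answer to cold and drought, had -0.35, 0.25 and -0.05, the cytokinin response genes RR16 and ARR15 -0.26 and 0.11, and IVD and MCCA, enzymes of branched-chain amino acid breakdown, 0.26 and 0.06. EXPA7 and EXPA18 had -0.86 ± 0.44 and 0.11, and LHCB4.1 and RCA 0.21 and -0.04. The circadian clock list had 0 of 14 entries under a named probe set and was not used here.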

How the data were processed

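The authors deposited 1 linear intensity per probe set and array, and the software and settings are not given in the sources used here. Judging from the values, the arrays had been scaled, since each of the 8 arrays had a trimmed mean (2% removed at both ends) of 150.01 to 150.02. The 64 control probe sets were left out, which left 22746. Each deposited intensity was converted to log2(intensity + 10), so changes of dim probe sets are understated. All 12 arrays entered a linear model with a mean for each of the 6 groups, fitted by limma 3.58.1 under R 4.3.3 (6 residual and 5.34 prior degrees of freedom, intensity trend), with Benjamini-Hochberg adjustment over all probe sets and a threshold of 0.05. Errors are standard errors of that fit. The number of arrays limits the precision. Python 3.11.15 with pandas 2.3.3, numpy 2.4.6, scipy 1.17.1 and matplotlib 3.10.9 made the tables and plots.

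The lot number of the labels was taken as a shared batch that pairs the arrays. It coincides with the replicate number for every array, so this reading could not be checked. Between groups the lot 2 minus lot 1 deviations correlated at 0.05 to 0.33, and the lot was tried as a block. Other alternatives were another constant, a filter on low signals, 2 further scalings, the 8 arrays alone, no trend and leaving out each array.

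Names came from the platform annotation and RefSeq genes of TAIR10.1: 13484 tested probe sets matched 13333 loci, 1535 of them with a symbol, and 9262 are unnamed here. The rule for named genes took the 12 highest and 12 lowest loci that passed with 1 sign in both lots, up to 8 a direction with a symbol, the 5 smallest p values where fewer than 5 passed, all loci that passed in both responses, and list members that passed with up to 3 others. Further list members were named beyond it. Members and lists were chosen with earlier results of these data known. The search of promoters and the protein comparison planned for the leading genes were not made, and LFY itself is not reported here.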

Additional observations from a re-analysis of the deposited data

Results flagged for a closer look

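The interaction between design and LEAFY, that is the difference tested above, passed for 23 probe sets. Of these calls 5 held in all 8 fits that left out 1 array, 5 held in none, 9 were lost with arrays scaled to equal medians and 10 without the intensity trend. The sign does not tell which response was the larger in size, and at 16 of the 23 this was the acute response. Positive log2 differences were 4.35 for AT5G55450, 3.85 for AT4G12500, 3.83 for 247490_at, 3.46 for AT4G12490 and 2.99 for AT4G36700. They were 2.41 for both AT5G50335 and AT1G09500, 2.17 for 266364_at and 1.89 for Prx37. The other positive values were 1.72 for AT5G01210, 1.69 for 258791_at and AT4G16260, 1.68 for AT4G24780, 1.64 for 246919_at and 1.26 for 245296_at. Negative differences were -3.93 for 248844_s_at, -3.51 for AT5G60630, -2.74 for AT1G73600 and -2.57 for AT2G26390. Those of CW14, 254385_s_at, 249867_at and 258742_at were -2.13, -1.98, -1.84 and -1.76. With 2 arrays a group, no group was large enough to look for single outlying arrays.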

How the results depend on the processing

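All 23 differences that passed kept their direction under the 16 alternatives that gave them a value. The alternatives reuse the arrays that made the calls, so the kept direction is no separate support. With the lot as a replicate block 22 of the 23 passed, and the counts were 16 higher and 12 lower. The block lost 258742_at (adjusted p = 0.051), and AT4G25170 (0.0168) and AT5G49770 (0.0461) passed with it. Of the 23, 22 passed with a constant of 1, 23 with 32, 17 with quantile normalization, 14 with arrays scaled to equal medians, 17 on the 8 arrays alone and 13 without the trend; AT5G50335 was not tested under the signal filter and was lost with a constant of 1 (0.127). Requiring a mean signal of at least 20 raised the difference to 23 higher and 16 lower, with fewer probe sets tested. Scaling to equal medians gave 3 lower for the difference, 29 higher for dexamethasone, 25 higher and 9 lower for 35S::LFY, and 388 lower for mock against Landsberg erecta. Without the trend the counts were 5 lower for the difference, 22 higher and 39 lower for dexamethasone and 22 higher and 10 lower for 35S::LFY. The 8 arrays alone gave 93 lower for dexamethasone. The cause of these shifts was not tested. Leaving out 1 array gave 4 to 11 higher and 1 to 8 lower for the difference, 15 to 39 and 17 to 45 for dexamethasone, 1 to 33 and 0 to 22 for 35S::LFY (1 to 2 and 0 to 1 without an array of that design), and 477 to 949 and 254 to 881 for mock against Landsberg erecta.

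Some differences that did not pass changed sign when 1 array was left out. They ran from -0.51 to 0.73 for ARR15, -0.22 to 0.16 for AT1G22570, -0.13 to 0.94 for AT4G22470, -0.086 to 0.31 for AT5G22390, -0.063 to 0.30 for AT5G57760, -0.44 to 0.27 for AT5G62280, -0.26 to 0.76 for COR15A, -0.99 to 0.29 for COR15B, -0.16 to 0.068 for COR47, -0.21 to 0.42 for EXPA18, -0.00050 to 0.53 for IVD, -0.017 to 0.44 for LHCB4.1, -0.14 to 0.25 for MCCA and -0.32 to 0.23 for RCA. Among list members outside the naming rule they ran from -0.94 to 0.35 for UFO, -0.27 to 0.14 for CLV3, -0.52 to 0.55 for AT2G18010, -0.40 to 0.49 for GH3.1, -0.17 to 0.077 for IAA20, -0.16 to 0.49 for EXPA8, -0.24 to 0.14 for MYC4, -0.44 to 0.16 for WRKY53, -0.43 to 0.77 for CML37, -1.23 to 0.55 for CML38, -0.27 to 0.13 for STZ and -0.75 to 0.047 for UF3GT. Equal medians turned AT1G22570 (0.21), AT5G62280 (0.13), COR47 (0.20), RCA (0.21), SWEET1 (0.012), CLV3 (0.016), IAA20 (0.020), MYC4 (0.16), WRKY53 (0.029), STZ (0.15) and PYE (0.051). Quantile normalization turned AT5G62280 (0.11), RR16 (0.058), CLV3 (0.047), IAA20 (0.059), MYC4 (0.17) and WRKY53 (0.12), a constant of 1 turned AT2G18010 (-0.079) and STZ (0.062), and a constant of 32 turned AT5G22390 (-0.086) and AT5G62280 (0.34). Signals below 10 limit AT5G55450, AT5G50335 and AT4G36700, whose size depends on the constant. The same limit holds, among genes that did not pass for the difference, for AT5G62280, LBD29, JAG and EFR.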
